A study of Mus musculus with 47 samples.

Results

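The comparison described here asked how the transcripts of early T-cell precursors differed after 12 h with an inhibitor of Notch cleavage. It holds 8 of the 47 RNA-seq libraries of the series, 4 treated with a gamma-secretase inhibitor (GSI) and the 4 untreated libraries that share their title date and stage. They were chosen by those labels alone: normal fetal liver cells with no Cre virus, titles that name GSI, and an untreated partner of the same date. The other libraries mostly compare Bcl11b knockout with control precursors.

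All 8 libraries came from C57BL/6 (B6) fetal liver precursors with intact Bcl11b, grown with Flt3L and IL-7 on OP9-DL1, a mouse stromal line that presents the Notch ligand Delta-like 1. The treated cells received GSI at 1 µM for the last 12 h of culture and the untreated cells did not, and the labels name neither the compound nor a vehicle. There were 2 pairs of DN2a cells, the double-negative stage before commitment to the T lineage, and 2 pairs of DN2b cells, the stage just after it. Both DN2b pairs were harvested on culture day 8.5, and the titles of the DN2a pairs give no day and join more than 1 date. The libraries of DN2b replicate 1 are titled DN3, the following stage, but carry the stage label DN2b. Their column headers also name DN3, while those of DN2b replicate 2 name DN2b. Of genes described below, the untreated library of replicate 1 held more Ptcra than that of replicate 2 (161 against 51.9 FPKM), and also more Rag1 and Bcl11b. Il2ra went the other way, at 407 against 457 FPKM. Whether the DN2b pairs are of the same stage was not tested. Cells were sorted on Kit, CD45, CD25 and lack of lineage markers. The protocol lowered IL-7 partway through some early cultures, and does not say which, while the labels of some other libraries of the series name reduced IL-7. The labels do not say whether the pairs came from separate litters, so p-values measure the spread between these 4 pairs. The date of DN2b replicate 2 also stands in the titles of DN2a replicate 2, and the replicate 1 titles of both stages name the same month, while the model treats the 4 pairs as independent. Values per pair are given below in the order DN2a replicate 1, DN2a replicate 2, DN2b replicate 1, DN2b replicate 2, untreated first.

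Notch receptors are cut by gamma-secretase after they bind a ligand on a neighbouring cell, and the freed intracellular domain binds the DNA-binding protein RBPJ and a Mastermind coactivator to switch on target genes. The signal directs precursors to the T lineage and is needed for their survival and growth before they rearrange the T-cell receptor beta chain. Several targets, such as Nrarp and Dtx1, feed back on the pathway. Gamma-secretase also cuts many other membrane proteins, so GSI is not an inhibitor of Notch alone.

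The sequences upstream of 4 genes that the results turn on are shown with the core letters of the RBPJ motif, TGGGAA on either strand (TTCCCA when read on the other), in capitals. Each is the window of 250 bases before the annotated start, 5′ to 3′ on the gene's strand, from RefSeq on GRCm38.p6: Dtx1 at chr5:120711670-120711919 (minus strand), Nrarp at chr2:25180508-25180757 (plus strand), Hes5 at chr4:154960673-154960922 (plus strand) and Ptcra at chr17:46763713-46763962 (minus strand). 
Dtx1: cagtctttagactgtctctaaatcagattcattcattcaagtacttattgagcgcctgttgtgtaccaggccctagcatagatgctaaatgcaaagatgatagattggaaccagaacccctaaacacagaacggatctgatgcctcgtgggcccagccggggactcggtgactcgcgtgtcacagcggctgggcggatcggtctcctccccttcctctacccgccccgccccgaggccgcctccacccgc
Nrarp: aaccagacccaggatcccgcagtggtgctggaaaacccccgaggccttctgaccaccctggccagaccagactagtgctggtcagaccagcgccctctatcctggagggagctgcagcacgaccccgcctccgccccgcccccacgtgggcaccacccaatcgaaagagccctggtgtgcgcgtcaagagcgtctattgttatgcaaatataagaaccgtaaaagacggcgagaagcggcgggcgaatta
Hes5: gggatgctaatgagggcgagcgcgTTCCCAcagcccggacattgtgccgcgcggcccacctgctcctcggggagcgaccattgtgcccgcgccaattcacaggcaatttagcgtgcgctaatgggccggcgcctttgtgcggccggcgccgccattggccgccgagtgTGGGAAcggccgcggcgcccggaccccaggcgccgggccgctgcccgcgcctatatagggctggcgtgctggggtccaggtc
Ptcra: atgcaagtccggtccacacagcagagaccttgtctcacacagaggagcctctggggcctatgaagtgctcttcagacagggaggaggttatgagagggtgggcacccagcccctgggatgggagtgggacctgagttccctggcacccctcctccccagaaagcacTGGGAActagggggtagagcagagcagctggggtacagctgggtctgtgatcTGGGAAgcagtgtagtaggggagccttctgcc
Hes5 held 2 matches, on opposite strands at positions -226 and -82 from the start and 138 bases apart, and both continue as the longer GTGGGAA. Ptcra held 2 matches on its own strand, at -84 and -32 with 46 bases between them. The Dtx1 and Nrarp windows held none, which says only that these letters are not in these windows. The 6 letters occurred in the windows of 24.1% of 27025 genes with a RefSeq promoter and of 23.4% of the genes tested here. They occurred in 2 of 6 feedback targets (Hes5 and Hes7), in 2 of 9 T-lineage targets (Ptcra and Skp2) and in 9 of 37 genes of the Notch machinery, so none of these shares can be read as a feature of the lists. Hes1, Hey1, Heyl, Myc and Ccnd1 had no entry among these promoters and were not searched.

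Values are FPKM, fragment numbers corrected for transcript length and for the size of the library, with a floor of 0.1 FPKM that stands for not detected or not estimated. Differences are GSI minus untreated on the scale of log2(FPKM + 1), which understates those of genes with low levels. The cells carried the markers of their sort: Ptprc (CD45) stood between 54.1 and 155 FPKM, Il2ra (CD25) between 187 and 457 FPKM, and Kit was higher in DN2a (54.8 to 90.1 FPKM) than in DN2b (13.0 to 40.1 FPKM). Bcl11b, switched on at commitment, was at most 13.3 FPKM in DN2a and at least 45.6 FPKM in DN2b. Cd44, a further gene set beforehand as a marker of DN2 cells, was 20.6 to 33.5 FPKM in DN2a but only 1.71 to 7.71 FPKM in DN2b. Floor values need care, because Thy1, a surface gene of T-lineage cells, is listed at 0.1 FPKM in both libraries of DN2a replicate 2 and Il7r, the receptor for a cytokine the cells were grown in, at 0.1 FPKM in the untreated library of DN2a replicate 1. The GSI library of DN2b replicate 1 stood apart in immediate early genes, which respond within minutes to stimuli and to handling: Fos was 44.5 against 8.93 FPKM in its partner, Jun 65.5 against 13.7 FPKM and Fosb 28.0 against 3.46 FPKM. Over the list of such genes the median log2 difference was 1.73 in that pair and between -0.08 and 0.23 in the other 3 pairs. What part this library has in the results below was not tested. The counts of the gene lists are therefore also given without its pair, except for the lists written after values were seen. Without that pair, 19.5% of all genes were lower and 14.8% higher in the 3 remaining pairs.

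No gene was called over the 4 pairs. With limma, pairs as a block and adjustment over 12783 genes tested, 0 had an adjusted p under 0.05 (0% called), the smallest adjusted p was 0.285, and 1323 genes had an unadjusted p under 0.05. Of these, 713 (5.58% of the genes tested) were lower and 610 (4.77%) higher with GSI. The unadjusted split between lower and higher depends on scaling, with 577 lower and 754 higher after median centring and 602 lower and 738 higher after quantile normalization. A gene was lower in 4 of 4 pairs for 1356 genes (10.6%) and higher in 4 of 4 for 1045 (8.17%). In DN2a, 3921 genes (30.7%) were lower and 3240 (25.3%) higher in both pairs, and in DN2b 3731 (29.2%) and 2842 (22.2%). These percentages are the background against which the counts of the gene lists and of named genes below are to be read. Between 210 and 287 genes differed by a log2 value of at least 1 in a single pair, and 53 did in the mean of the 4 pairs. Across genes, the differences of any 2 pairs correlated weakly, with Spearman's rho from 0.03 to 0.22, a description over genes that are not independent.

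Notch target genes that report on the pathway itself were lower with GSI in nearly every pair. Of the 10 genes in this list, Hey2 was not in the table, Hes7 and Hey1 were too low to be tested, and 7 were tested: 6 were lower in 4 of 4 pairs, all 6 with an unadjusted limma p under 0.05, none was higher, and the median log2 difference was -0.39 against -0.02 over all genes tested. Without DN2b replicate 1, 6 of 7 were lower in the 3 remaining pairs, beside 19.5% of all genes, and 3 had an unadjusted limma p under 0.05.

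Dtx1, which encodes the Notch-binding ubiquitin ligase Deltex, showed the largest difference of any gene named here in the lower direction. Its level went from 25.4 to 10.3, 26.2 to 13.5, 79.0 to 15.5 and 65.1 to 11.5 FPKM. Every GSI library lay below every untreated library, and the treated levels were alike in the stages although the untreated ones were not. GSI left 40.5% and 51.6% of the untreated level in DN2a and 19.7% and 17.7% in DN2b. Over the 4 pairs the log2 difference was -1.70 (SE 0.27, limma adjusted p = 0.285). In DN2b it was -2.34 (adjusted p = 0.108), and it passed the threshold there with robust variances (adjusted p = 0.0131) and after quantile normalization (adjusted p = 0.0484). In 2 further untreated DN2a libraries of other dates and days (8.5 and 4.5), Dtx1 stood at 11.2 and 6.50 FPKM, within or below the range of the treated DN2a libraries. With them in the fit and no pairing, the DN2a difference was -0.32 in place of -1.07.

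Nrarp, a small ankyrin-repeat protein that binds the Notch intracellular domain and limits its activity, went from 67.2 to 42.6, 63.9 to 38.9, 25.2 to 20.2 and 31.7 to 22.4 FPKM. Within each stage the groups did not overlap, and GSI left 63.3%, 60.9%, 80.1% and 70.8% of the untreated level, but the untreated DN2b libraries lay below the treated DN2a ones. The log2 difference was -0.53 (SE 0.09, limma adjusted p = 0.285). The further untreated DN2a libraries held 37.6 and 61.4 FPKM, one below both treated DN2a libraries and the other between the groups.

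The Hes and Hey genes encode transcriptional repressors. Hes1 went from 48.6 to 39.6, 44.6 to 42.1, 81.1 to 45.2 and 57.5 to 44.9 FPKM (log2 difference -0.39, SE 0.13, limma adjusted p = 0.431). The 4 treated libraries lay between 39.6 and 45.2 FPKM, while the untreated ones spanned 44.6 to 81.1 FPKM. Hes5, with the pair of motif matches shown above, was low throughout and went from 3.88 to 3.22, 2.40 to 2.21, 3.47 to 2.37 and 2.72 to 1.43 FPKM, a log2 difference of -0.33 (SE 0.12). Heyl went from 1.12 to 0.965, 1.44 to 1.07, 2.87 to 1.35 and 1.21 to 0.674 FPKM, with a log2 difference of -0.37 (SE 0.13), but is listed at 0.1 FPKM in both further untreated DN2a libraries, below every treated library. Hey1 was also lower in 4 of 4 pairs but between 0.805 and 1.33 FPKM. Hes7 did not exceed 1.12 FPKM and was lower with GSI in only 2 pairs.

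Notch1 and Notch3 are receptors and also targets of the pathway. Notch1 went from 87.3 to 76.6, 57.3 to 46.0, 311 to 230 and 252 to 147 FPKM, or -0.43 in log2 (SE 0.11; limma adjusted p = 0.406). Notch3 differed in direction by pair: 19.4 to 18.0, 11.1 to 14.9, 82.9 to 52.7 and 40.4 to 22.7 FPKM. It was lower in both DN2b pairs and in 1 DN2a pair, and the log2 difference over all 4 was -0.29 (SE 0.20). As a group the 7 tested genes had a median log2 difference of -0.19 in DN2a and -0.59 in DN2b. In DN2a 6 of them were lower in both pairs and in DN2b all 7, beside the 30.7% and 29.2% of all genes given above. Whether the stages differ was tested gene by gene, and for none of these genes was the stage difference called. The Dtx1 difference was less negative in DN2a than in DN2b by 1.27 (SE 0.18, limma adjusted p = 0.892).

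**Figure D1:**
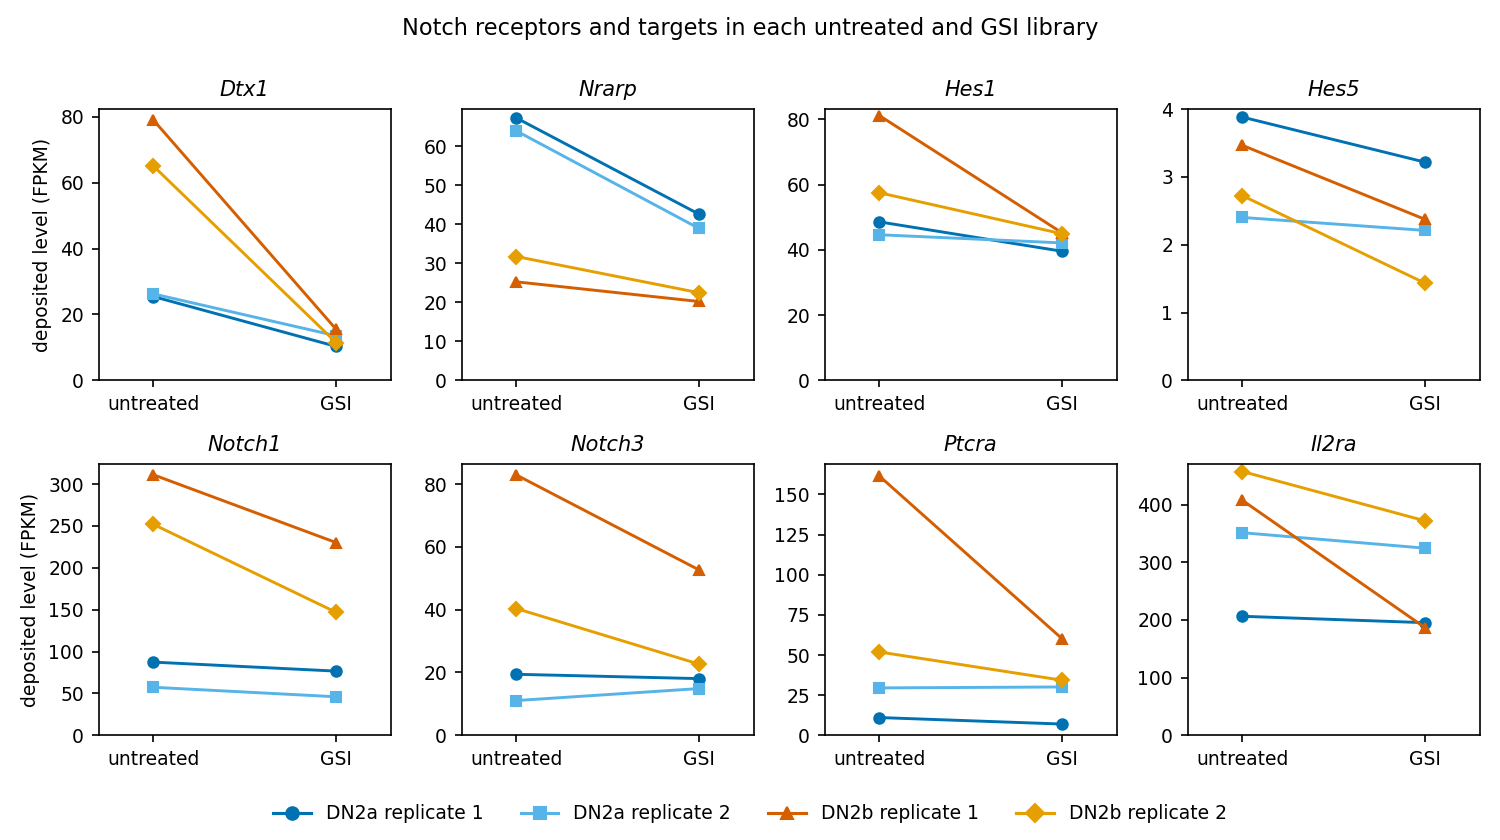
Deposited levels (FPKM, linear axes from 0) of 8 Notch receptors and targets in each library, with a line joining the untreated and GSI library of a pair and colour and symbol for the pair. Dtx1 converges to between 10.3 and 15.5 FPKM with GSI, and Il2ra and Ptcra are much lower in DN2b replicate 1 than in the other pairs relative to their partners.

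Targets that carry out the T-lineage programme were mixed. Among 11 tested, 3 were lower (Il2ra, Myc and Trib2) and 1 higher (Tcf7) in 4 of 4 pairs, beside 10.6% and 8.17% of all genes. The median log2 difference was -0.03. In the 3 pairs other than DN2b replicate 1, 5 of 11 were lower and 2 higher, beside 19.5% and 14.8% of all genes, and the median was -0.13; it was -0.09 when DN2b replicate 2 was left out instead. Ptcra, the invariant chain of the pre-T-cell receptor and a classical Notch target, went from 11.04 to 6.99, 29.5 to 30.1, 161 to 60.2 and 51.9 to 34.3 FPKM. It was lower in 3 pairs and level in DN2a replicate 2 (log2 difference -0.64, SE 0.22, limma adjusted p = 0.432), and the difference was -0.12 with the further untreated DN2a libraries. Il2ra, the IL-2 receptor alpha chain that the sort itself selected, went from 206 to 195, 351 to 324, 407 to 187 and 457 to 372 FPKM. Its log2 difference of -0.40 (SE 0.18) came mostly from DN2b replicate 1, at -1.12.

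Tcf7, which encodes the T-lineage factor TCF-1, was higher with GSI in each pair: 343 to 392, 204 to 234, 560 to 1000.2 and 422 to 555 FPKM (log2 difference 0.41, SE 0.13, limma adjusted p = 0.424). Myc, a growth regulator and Notch target in T-cell leukaemia, went from 113 to 99.5, 103 to 94.1, 150 to 141 and 80.4 to 73.6 FPKM. These steps were small but of 1 direction, with a log2 difference of -0.13 (SE 0.07). The further untreated DN2a libraries held 485 and 273 FPKM of Tcf7 and 96.1 and 92.3 FPKM of Myc, for both genes 1 library between the treated DN2a levels and 1 beyond them. Trib2, a pseudokinase gene, was lower in 4 of 4 pairs at levels between 0.963 and 4.34 FPKM, with a log2 difference of -0.28 (SE 0.13) that turned to 0.14 with the further untreated libraries, both listed at 0.1 FPKM. Gata3, a factor needed throughout T-cell development, went from 30.4 to 30.0, 32.5 to 25.2, 37.7 to 70.3 and 37.1 to 36.6 FPKM. Only DN2b replicate 1 was higher, and without that pair its log2 difference turned from 0.12 to -0.13. For Lef1, Ccnd1, Ccnd3, Igf1r and Skp2 the log2 differences lay between -0.12 (Skp2) and 0.19 (Ccnd3), with both directions among the pairs of each gene. Lef1, at -0.01, turned to 0.96 with the further untreated DN2a libraries, which held 0.683 and 0.737 FPKM of it.

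The genes that build and read the Notch signal differed little. Notch1 and Notch3 belong both to this list and to the feedback list above, so Notch1 is counted in both as lower in 4 of 4 pairs. Of 40 machinery genes tested, 4 were lower and 3 higher in 4 of 4 pairs, beside 10.6% and 8.17% of all genes, with a median log2 difference of 0.03. Both counts are near those shares, so the members of 1 direction named below are not a feature of the list. Without DN2b replicate 1, 10 of 39 were lower and 5 higher, beside 19.5% and 14.8% of all genes. Beside Notch1, the receptor Notch2 had a log2 difference of -0.08 (SE 0.11), and Notch4 had -0.11 (SE 0.23) at levels between 0.177 and 2.46 FPKM. Of the ligands, which signal to neighbouring cells, only Dll1 and Jag2 reached the level needed for a test. Among the glycosyltransferases that tune receptors to their ligands, Lfng (lunatic fringe) was higher in 4 of 4 pairs (log2 difference 0.26, SE 0.09) and Mfng (manic fringe) lower in 4 of 4 (log2 difference -0.26, SE 0.09). Lfng went from 24.3 to 27.0, 18.1 to 21.9, 6.85 to 7.98 and 16.4 to 22.4 FPKM, and Mfng from 48.0 to 37.9, 32.4 to 30.1, 41.9 to 38.4 and 40.0 to 28.4 FPKM.

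No common direction was seen for genes of the enzyme that the drug inhibits. None of 6 tested gamma-secretase genes was lower or higher in 4 of 4 pairs: the log2 difference was -0.05 (SE 0.10) for Ncstn and 0.14 (SE 0.10) for Psenen. In the nuclear complex Rbpj had -0.05 (SE 0.08) and stood between 15.7 and 22.5 FPKM, while the coactivator Maml3 was higher in 4 of 4 pairs, with a log2 difference of 0.30 (SE 0.09). None of the 6 corepressor genes and neither ADAM protease gene had 1 direction in all pairs. Of 8 genes for receptor turnover and trafficking, Mib1, a ubiquitin ligase for Notch ligands, and the Deltex relative Dtx4 were lower in 4 of 4 pairs, with log2 differences of -0.26 (SE 0.10) and -0.36 (SE 0.14). Numbl, a relative of the Notch antagonist Numb, was higher in 4 of 4 (log2 difference 0.33, SE 0.10), from 3.32 to 4.38, 2.26 to 3.52, 2.82 to 3.90 and 3.49 to 4.11 FPKM.

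Outside the pathway, the genes with the most negative mean log2 difference among those lower in 4 of 4 pairs followed Dtx1 at a distance. Deptor, an inhibitor of the mTOR kinase complexes, went from 33.4 to 18.5, 33.3 to 19.8, 17.8 to 5.43 and 24.6 to 9.45 FPKM. Within each stage every GSI library was below every untreated one, and the log2 difference was -1.10 (SE 0.15, limma adjusted p = 0.285). In the further untreated DN2a libraries Deptor was 33.5 and 21.2 FPKM, still above both treated DN2a libraries. Itga9, an integrin alpha chain, went from 5.68 to 3.16, 8.37 to 2.43, 10.5 to 6.57 and 16.6 to 7.19 FPKM (log2 difference -0.96, SE 0.16). Rasal1, a Ras GTPase-activating protein gene, went from 2.73 to 1.85, 3.72 to 1.87, 13.6 to 5.31 and 5.84 to 1.36 FPKM (log2 difference -0.96, SE 0.20). Cdh23, a cadherin gene, went from 3.05 to 1.69, 1.60 to 0.951, 15.4 to 4.69 and 2.46 to 0.352 FPKM, a log2 difference of -0.97 (SE 0.21). All 3 were lower in every pair, and the mean difference was larger in DN2b for Cdh23 and Rasal1. The other 5 of the 10 were uneven between pairs: Ifitm3 and Arhgef10l had their largest log2 difference in DN2b replicate 1 (-2.72 and -2.02), Hbb-b2 in DN2b replicate 2 (-2.29), Leng8 in DN2a replicate 2 (-2.65), and Epb4.1l4b was listed at the floor in 2 treated libraries.

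Pim2 had the most positive difference. It encodes a serine/threonine survival kinase of the cytokine response, and went from 1.17 to 8.42 and 3.34 to 10.6 FPKM in DN2a, and from the 0.1 FPKM floor to 1.76 and 9.66 FPKM in DN2b. The log2 difference was 2.04 (SE 0.32, limma adjusted p = 0.285), and 3.30 with a pseudocount of 0.1, so its size depends on the floor. The further untreated DN2a libraries held 15.4 and 9.77 FPKM of Pim2, within or above the range of the treated ones, and with them the DN2a difference was 0.71 in place of 1.77. The same held for other genes of this set. Bmf, a pro-apoptotic Bcl2 relative, was at the floor in both untreated DN2a libraries and at 2.89 and 2.26 FPKM with GSI, while the further untreated ones held 7.28 and 2.59 FPKM; in DN2b it went from 19.2 to 34.3 and 11.9 to 18.7 FPKM. Its log2 difference was 1.20 (SE 0.22, limma adjusted p = 0.313) and 0.61 with those libraries. Ypel3, Dyrk1b, Calcoco1, Socs3 and Hist3h2ba also stood lower in both treated DN2a libraries than in at least 1 of the further untreated ones.

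Jund, an AP-1 component, went from 43.3 to 61.7, 12.8 to 36.9, 25.4 to 96.2 and 33.1 to 51.5 FPKM (log2 difference 1.12, SE 0.24, limma adjusted p = 0.342). Nfkbia, the inhibitor of NF-kappaB, went from 0.824 to 15.2, 10.2 to 12.5, 34.0 to 123 and 14.5 to 17.8 FPKM, so that the difference was large in the first pair of each stage and small in the second. The treated library of DN2b replicate 1, which has the high immediate early genes, was the highest for both Jund and Nfkbia. Baz2b, a bromodomain protein gene, was higher in each pair and most so in DN2a replicate 2, where it went from 14.5 to 88.8 FPKM, and the further untreated DN2a libraries, at 39.7 and 36.7 FPKM, were below both treated ones. Hist3h2ba, a histone gene, went from 3.43 to 5.03, 0.1 to 1.87, 3.88 to 9.47 and 0.83 to 5.67 FPKM, a log2 difference of 1.20 (SE 0.22).

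**Figure D2:**
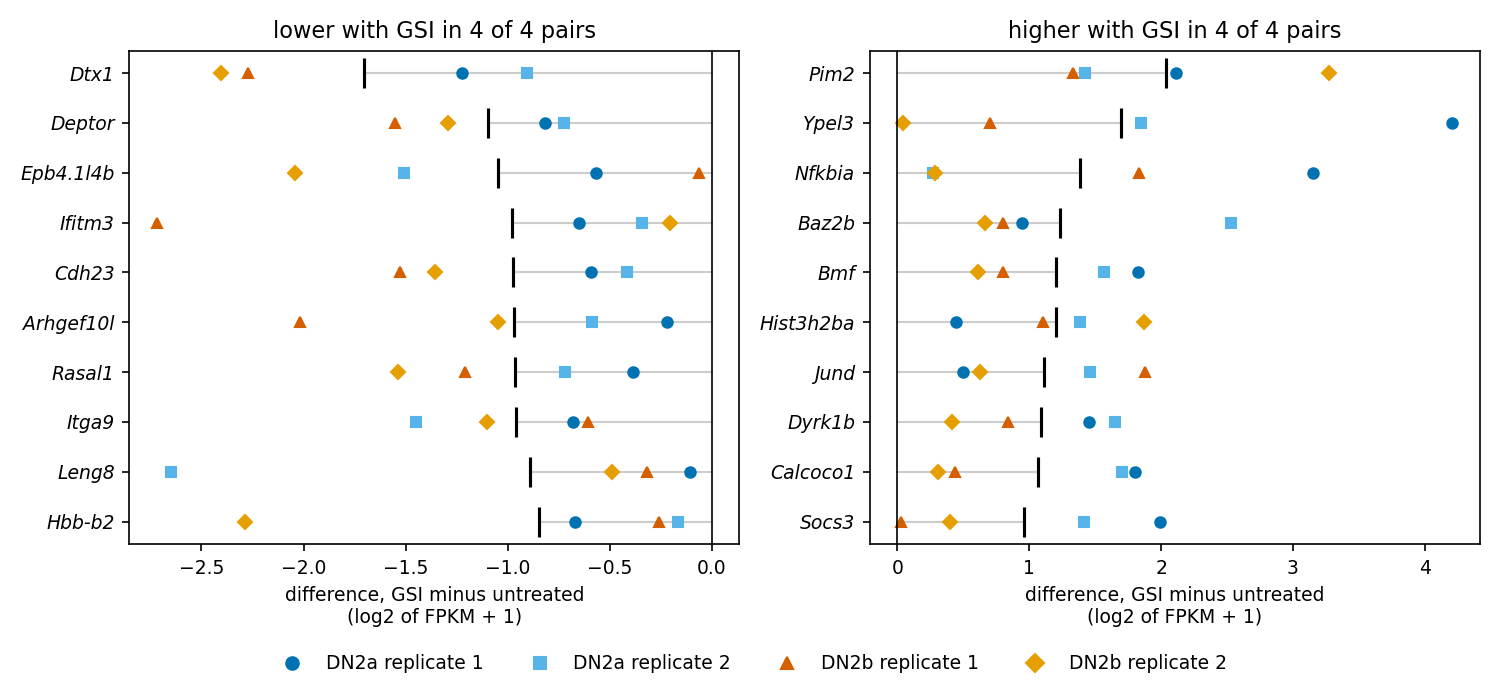
Differences in each pair (symbols, log2 of FPKM + 1, GSI minus untreated) and their mean (black bar) for the 10 most negative and 10 most positive genes of 1 direction in 4 of 4 pairs with at least 5 FPKM in a group. Dtx1 and Deptor lie apart from 0 in every pair, while Ypel3, Nfkbia and Leng8 owe their mean to 1 or 2 pairs.

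Within DN2a, no gene had an adjusted limma p under 0.05 (1041 had an unadjusted p under 0.05, smallest adjusted p 0.251). Beside Dtx1, the genes with the largest differences shared by both DN2a pairs in the lower direction included Gzmb, which encodes the cytotoxic protease granzyme B and went from 23.2 to 9.75 and 69.9 to 31.0 FPKM. Gfra1, a coreceptor for glial-derived growth factors, went from 7.93 to 3.47 and 4.30 to 1.67 FPKM in DN2a, and Ccr4, a chemokine receptor gene, from 7.55 to 3.47 and 5.37 to 2.29 FPKM. In the further untreated DN2a libraries, Gzmb was 108 and 41.1 FPKM and Ccr4 5.39 and 7.02 FPKM, above both treated libraries, while Gfra1 was 14.1 and 2.99 FPKM, the second of these between the treated levels. Genes higher in both DN2a pairs included Calcoco1 (2.48 to 11.2 and 2.47 to 10.3 FPKM), Fbxl12 (3.64 to 10.0 and 0.1 to 2.28 FPKM), Sytl1 (10.0 to 23.5 and 4.80 to 12.0 FPKM) and Mgst2 (24.2 to 53.5 and 14.4 to 30.0 FPKM). All 4 were within or above the range of their treated levels in at least 1 of the further untreated libraries.

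Within DN2b, 0 genes had an adjusted limma p under 0.05 (981 had an unadjusted p under 0.05, smallest adjusted p 0.108, that of Dtx1). Rab44, a Rab GTPase gene, went from 29.7 to 13.6 and 36.7 to 15.0 FPKM in DN2b but from 102 to 107 and 62.2 to 60.5 FPKM in DN2a. Adam11 went from 10.3 to 3.90 and 3.88 to 1.19 FPKM in DN2b, and was higher with GSI in both DN2a pairs. Ccr9, a chemokine receptor gene of T-cell precursors that directs cells to the thymus, went from 40.5 to 133 and 1.35 to 14.7 FPKM in DN2b; in DN2a it was at the floor in both libraries of replicate 1 and went from 5.15 to 5.63 FPKM in replicate 2. Gpr25, an orphan receptor gene, was higher in all 4 pairs: 21.3 to 31.4, 16.7 to 23.4, 27.8 to 53.2 and 16.3 to 31.8 FPKM, or 0.71 in log2 (SE 0.11; limma adjusted p = 0.285). The further untreated DN2a libraries held 15.7 and 14.8 FPKM of Gpr25, below every treated library.

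The difference between the stages was itself called for 0 of the genes tested. With limma 671 genes (5.25%) had an unadjusted p under 0.05 and the smallest adjusted p was 0.438. That smallest value belonged to Kctd12, an auxiliary subunit gene of GABA-B receptors, together with the pseudogene Gm17052. Kctd12 went from 7.62 to 4.40 and 8.02 to 2.46 FPKM in DN2a, and from 0.1 to 4.33 and 2.92 to 18.6 FPKM in DN2b, so that all pairs of 1 stage moved against those of the other. The log2 differences of the stages were apart by -3.33 (SE 0.28). Uaca, Rab44 and Adam11 had DN2b differences of -0.94, -1.16 and -1.18 and DN2a differences of 0.12, 0.01 and 0.28. For Calcoco1 the larger difference was in DN2a (1.75 against 0.37).

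**Figure D3:**
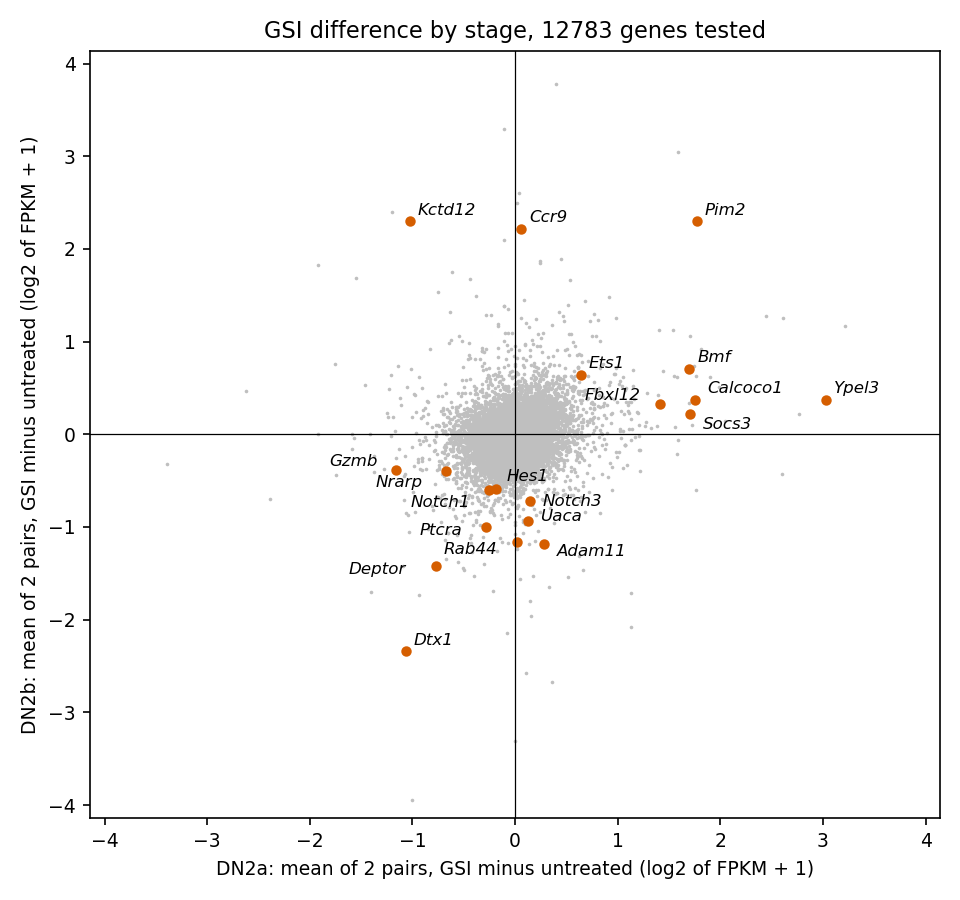
Mean GSI difference of the 2 DN2a pairs (horizontal) and the 2 DN2b pairs (vertical), both in log2 of FPKM + 1, for each of the 12783 genes tested (grey), with genes of the text in orange. Dtx1 (-1.07 and -2.34), Deptor (-0.77 and -1.42) and Pim2 (1.77 and 2.30) lie away from 0 on both axes in the same direction, Kctd12 (-1.03 and 2.30) does so in opposite directions, and Ccr9, Rab44 and Adam11 do so mainly for DN2b.

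Genes of the T-cell receptor complex and its signalling were mixed. Of 20 tested, 2 were lower and 1 higher in 4 of 4 pairs, near the 10.6% and 8.17% of all genes. These counts are not a feature of the list, whose median log2 difference was -0.06. This median turned positive under other choices: it was 0.0031 without DN2b replicate 1 (3 of 19 lower and 2 higher), 0.051 without DN2a replicate 2 and 0.20 with the further untreated DN2a libraries. Cd5, a surface inhibitor of receptor signalling, went from 6.43 to 2.89, 3.57 to 2.38, 7.13 to 4.97 and 5.41 to 2.34 FPKM (log2 difference -0.69, SE 0.13, limma adjusted p = 0.327). Rag1, a recombinase subunit gene, went from 41.8 to 41.9, 44.4 to 48.5, 184 to 256 and 91.5 to 154 FPKM, higher in DN2b and nearly level in DN2a. Cd3g, a chain of the CD3 complex, was slightly lower in 4 of 4 pairs with a log2 difference of -0.15 (SE 0.10) that turned to 0.32 with the further untreated DN2a libraries.

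Among 21 T-lineage transcription factors tested, 2 were lower and 3 higher in 4 of 4 pairs, beside 10.6% and 8.17% of all genes. Without DN2b replicate 1, 6 of 20 were lower and 4 higher, beside 19.5% and 14.8% of all genes. These small counts cannot be read as a feature of the list. Ets1, which is needed for T-cell development and survival, went from 20.4 to 28.0, 6.66 to 12.6, 97.1 to 132 and 31.1 to 56.7 FPKM (log2 difference 0.64, SE 0.10, limma adjusted p = 0.285). Its relative Ets2 went the opposite way, from 19.2 to 15.5, 8.63 to 7.22, 28.3 to 19.3 and 14.1 to 9.00 FPKM (log2 difference -0.41, SE 0.10). Id3, an inhibitor of E proteins, was higher in each pair and more so in DN2b, from 17.3 to 32.1 and 10.3 to 17.2 FPKM there. Bcl11b, which defines the commitment step, went from 13.3 to 13.1, 0.1 to 1.24, 100.4 to 117 and 45.6 to 49.7 FPKM, with a log2 difference of 0.34 (SE 0.18). Most of this difference came from DN2a replicate 2, where the untreated library was at the floor, and DN2a replicate 1 was nearly level.

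Of 18 progenitor genes tested, none was called, and 6 were lower and 1 higher in 4 of 4 pairs, beside 10.6% and 8.17% of all genes. The median log2 difference was -0.13, and 2 of those that were lower had an unadjusted limma p under 0.05. Bcl11a, a progenitor paralogue of Bcl11b, went from 27.5 to 22.0, 23.3 to 17.8, 9.55 to 7.17 and 10.3 to 7.59 FPKM, a nearly constant log2 difference at -0.36 (SE 0.08, limma adjusted p = 0.341). Hhex, a homeobox gene of progenitors, was lower in 4 of 4 pairs, most so in DN2a replicate 2, from 35.3 to 23.7 FPKM. Flt3, the receptor for the added Flt3L, was the member that was higher in 4 of 4, from 2.94 to 4.05, 2.68 to 3.04, 2.46 to 2.59 and 3.40 to 6.21 FPKM. Without DN2b replicate 1, 10 of 17 progenitor genes were lower and 1 higher in the 3 remaining pairs, beside 19.5% and 14.8% of all genes.

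Of 16 cholesterol synthesis genes tested, none was called, and 7 were higher and none lower in 4 of 4 pairs, beside 8.17% and 10.6% of all genes. With an unadjusted limma p under 0.05, 8 were higher, and the median log2 difference was 0.34. All 16 were higher in both DN2b pairs, beside 22.2% of all genes, with a median log2 difference of 0.54, whereas in DN2a 7 were higher and 3 lower in both pairs with a median of 0.09. The stage difference of the list was not tested, and that of single genes was called for none of them. Mvd, mevalonate diphosphate decarboxylase, went from 31.9 to 35.4, 15.8 to 29.1, 17.1 to 35.3 and 19.1 to 34.2 FPKM (log2 difference 0.70, SE 0.15, limma adjusted p = 0.342). Fdft1, squalene synthase, went from 24.4 to 34.3, 27.1 to 34.9, 22.2 to 32.4 and 23.7 to 40.2 FPKM, so that the groups did not overlap (log2 difference 0.52, SE 0.09, limma adjusted p = 0.285). Idi1, which encodes an isomerase of the pathway, had a log2 difference of 0.01 (SE 0.16). Without DN2b replicate 1, 7 of 16 were higher in the 3 remaining pairs and 4 had an unadjusted limma p under 0.05.

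Of 17 tested genes of ribosome synthesis and growth that are linked to Myc, none was called. In 4 of 4 pairs 7 were lower and none higher, beside 10.6% and 8.17% of all genes. Of the 17, 6 had an unadjusted limma p under 0.05, and the median log2 difference was -0.18, alike in DN2a (-0.20) and DN2b (-0.18). Polr1b, a subunit of RNA polymerase I, went from 44.3 to 34.3, 39.0 to 31.9, 34.1 to 25.2 and 31.3 to 17.2 FPKM (log2 difference -0.47, SE 0.11, limma adjusted p = 0.377). Nop2, a ribosomal RNA methyltransferase gene, went from 65.9 to 49.5, 51.2 to 44.8, 43.9 to 39.0 and 42.2 to 27.7 FPKM, and Wdr43, a nucleolar gene, from 42.5 to 37.9, 55.2 to 47.3, 51.4 to 43.1 and 41.2 to 33.2 FPKM. Without DN2b replicate 1, 7 of 17 were again lower in the 3 remaining pairs, with 3 at an unadjusted limma p under 0.05.

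Of 16 glycolysis genes tested, 3 were lower and none higher in 4 of 4 pairs, beside 10.6% and 8.17% of all genes. The median log2 difference was -0.12, and -0.011 without DN2a replicate 1. Without DN2b replicate 1, 4 of 16 were lower, beside 19.5% of all genes. Hk2, the first enzyme of glycolysis in growing lymphocytes, went from 32.2 to 27.9, 34.7 to 23.2, 17.3 to 12.9 and 24.5 to 18.2 FPKM (log2 difference -0.39, SE 0.09, limma adjusted p = 0.354). Pfkp, a phosphofructokinase gene, and the glucose transporter gene Slc2a3 were the others, with log2 differences of -0.58 (SE 0.20) and -0.31 (SE 0.11). Of 20 proliferation genes tested, only Mcm6, a replicative helicase subunit, was lower in 4 of 4 pairs (log2 difference -0.18, SE 0.09), and none was higher. In DN2a 12 of the 20 were lower and 2 higher in both pairs, beside 30.7% and 25.3% of all genes, and in DN2b 2 were lower and none higher. The pairs other than DN2b replicate 1 shared a direction for 1 lower and 2 higher genes.

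Genes of the cytokine response included several that were higher. Of 15 tested, 6 were higher (Pim2, Pim1, Il4ra, Il21r, Flt3 and Socs3) and only Il2ra lower in 4 of 4 pairs. Among all genes 8.17% were higher and 10.6% lower. The median log2 difference of the list was 0.17. The median was 0.31 without DN2b replicate 1, where 8 of 15 were higher and 2 lower, and 0.0042 with the further untreated DN2a libraries. Pim1, a kinase gene switched on by STAT5, went from 251 to 312, 195 to 246, 35.3 to 48.3 and 101 to 133 FPKM, an even log2 difference of 0.37 (SE 0.07, limma adjusted p = 0.319). Il4ra, the IL-4 receptor alpha chain, went from 39.3 to 59.4, 41.8 to 55.4, 7.95 to 9.61 and 19.8 to 28.7 FPKM (log2 difference 0.43, SE 0.09, limma adjusted p = 0.341). In the further untreated DN2a libraries Pim1 was 225 and 212 FPKM and Il4ra 39.0 and 37.8 FPKM, so that both genes were below both treated DN2a libraries. Socs3, a feedback inhibitor of cytokine signalling, was at the floor in both untreated DN2a libraries and at 3.38 and 1.94 FPKM with GSI, beside 4.12 and 3.08 FPKM in the further untreated ones.

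**Figure D4:**
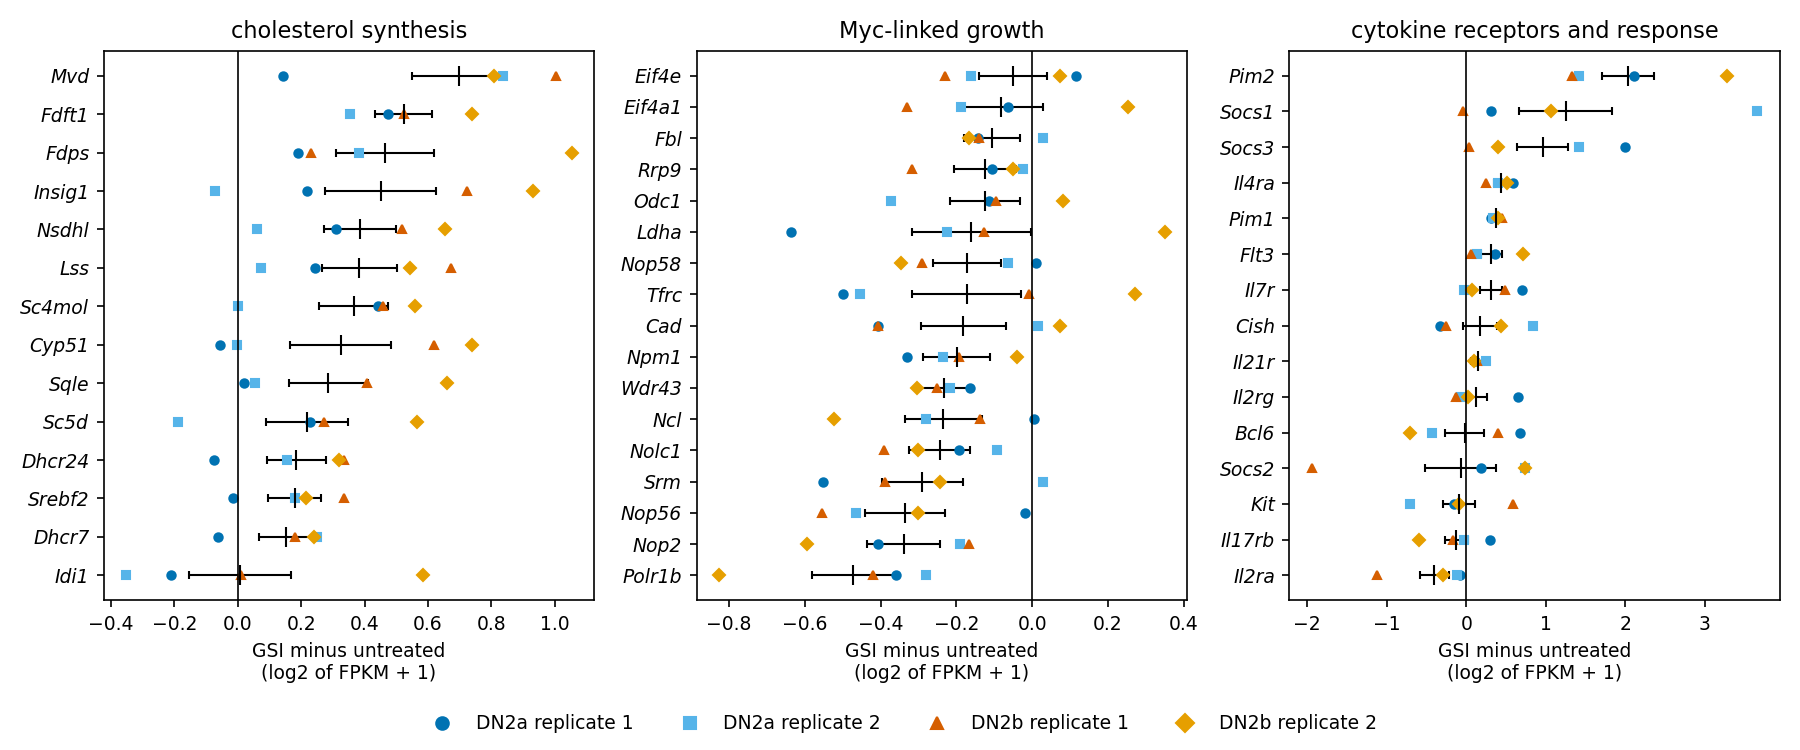
Tested members of the cholesterol synthesis, Myc-linked growth and cytokine lists, with the difference in each pair (symbols, log2 of FPKM + 1, GSI minus untreated) and the mean with its standard error (black bar and whiskers). The DN2b symbols of the cholesterol genes lie to the right of 0 for every member drawn, and Pim1 and Il4ra have all 4 pairs close together above 0.

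Of 15 genes of the Bcl2 family and p53 response tested, 3 (Bmf, Bad and Bcl2l1) were higher in 4 of 4 pairs and none lower. Among all genes 8.17% were higher and 10.6% lower. Leaving out DN2b replicate 1 gave 5 of 15 higher and none lower. Bad, a pro-apoptotic member, went from 23.1 to 27.3, 17.1 to 21.0, 16.2 to 21.5 and 17.9 to 21.4 FPKM (log2 difference 0.29, SE 0.08), and Bcl2l1, which encodes the pro-survival Bcl-xL, from 44.2 to 51.6, 34.4 to 39.2, 14.5 to 16.6 and 15.9 to 25.0 FPKM. Trafficking genes were mixed, with 2 of 11 lower and 1 higher in 4 of 4 pairs, or 4 of 11 and 1 without DN2b replicate 1. Beside the shares of all genes, these small counts cannot be read as a feature of the list. Selplg, the P-selectin ligand that T-cell precursors use to enter the thymus, went from 115 to 153, 55.9 to 85.9, 147 to 221 and 172 to 216 FPKM (log2 difference 0.48, SE 0.08, limma adjusted p = 0.285). Of 12 interferon-induced genes, Oasl2 was lower in 4 of 4 pairs (log2 difference -0.48, SE 0.09). Bst2, Ifi27l2a and Stat2 were higher in 4 of 4, with log2 differences of 0.29, 0.47 and 0.21. Without DN2b replicate 1, 2 of 11 were lower and 3 higher. These counts too are small and cannot be read as a feature of the list.

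Markers of other cell types are given as measured values, since in bulk libraries fewer cells of a type and less RNA per cell cannot be told apart. The 16 myeloid and dendritic genes in the table summed to 484 and 537 FPKM in untreated and 668 and 590 FPKM in treated DN2a libraries. In DN2b the sums were 96.0 and 204.9 FPKM untreated and 105 and 205.2 FPKM with GSI, level in replicate 2. The sum was higher in 4 of 4 pairs, a design in which the exact sign-flip test cannot pass the threshold. Of 13 members tested, 1 was lower and 6 higher in both DN2a pairs, beside 30.7% and 25.3% of all genes. In both DN2b pairs 5 were lower and 2 higher, beside 29.2% and 22.2%. Csf3r and H2-Aa stayed under 1 FPKM in every library, and of 13 members tested Mpo was lower and Cst3 higher in 4 of 4. The 8 B-cell genes summed to between 17.1 and 27.3 FPKM, lower with GSI in 4 of 4 pairs, mostly from Cd79b, while Cd22, Cd79a and Ebf1 stayed under 1 FPKM. The sum of the 7 erythroid and megakaryocyte genes was lower with GSI in 4 of 4 pairs, and is mostly the globin gene Hbb-b2. It lay between 921 and 1455 FPKM in DN2a and between 22.1 and 65.1 FPKM in DN2b. Of the 4 members tested, 1 was lower and 0 higher in 4 of 4 pairs. The sum of the 14 NK and innate lymphoid genes, mostly Gzma, was higher in 2 of 4 pairs, and Eomes, Ncr1, Il2rb, Klrb1b and Prf1 stayed under 1 FPKM. Without DN2b replicate 1, 1 of 13 tested myeloid genes was lower and 2 higher, and 1 of 7 NK genes was lower and 3 higher. Among B-cell genes 1 of 3 was lower and 0 higher, and among erythroid genes 1 of 5 was lower and 1 higher.

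OP9 stroma is of mouse origin, so that carried-over stromal RNA would be counted. The 10 stromal genes in the table summed to between 31.7 and 69.5 FPKM and were higher with GSI in 1 of 4 pairs, but that sum is mostly Pdgfrb. Of 5 members tested, Col1a1 and Sparc were higher in 4 of 4 pairs, at levels of at most 9.43 FPKM, and Dcn, Pdgfra and Postn stayed under 1 FPKM in all 8 libraries. The median log2 difference of the 5 was 0.37, and 3 were higher and 1 lower with an unadjusted limma p under 0.05. Without DN2b replicate 1, 2 of 5 were higher and 1 lower in the remaining pairs, with a median of 0.27. The part of stromal RNA in the differences of other genes was not tested.

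**Figure D5:**
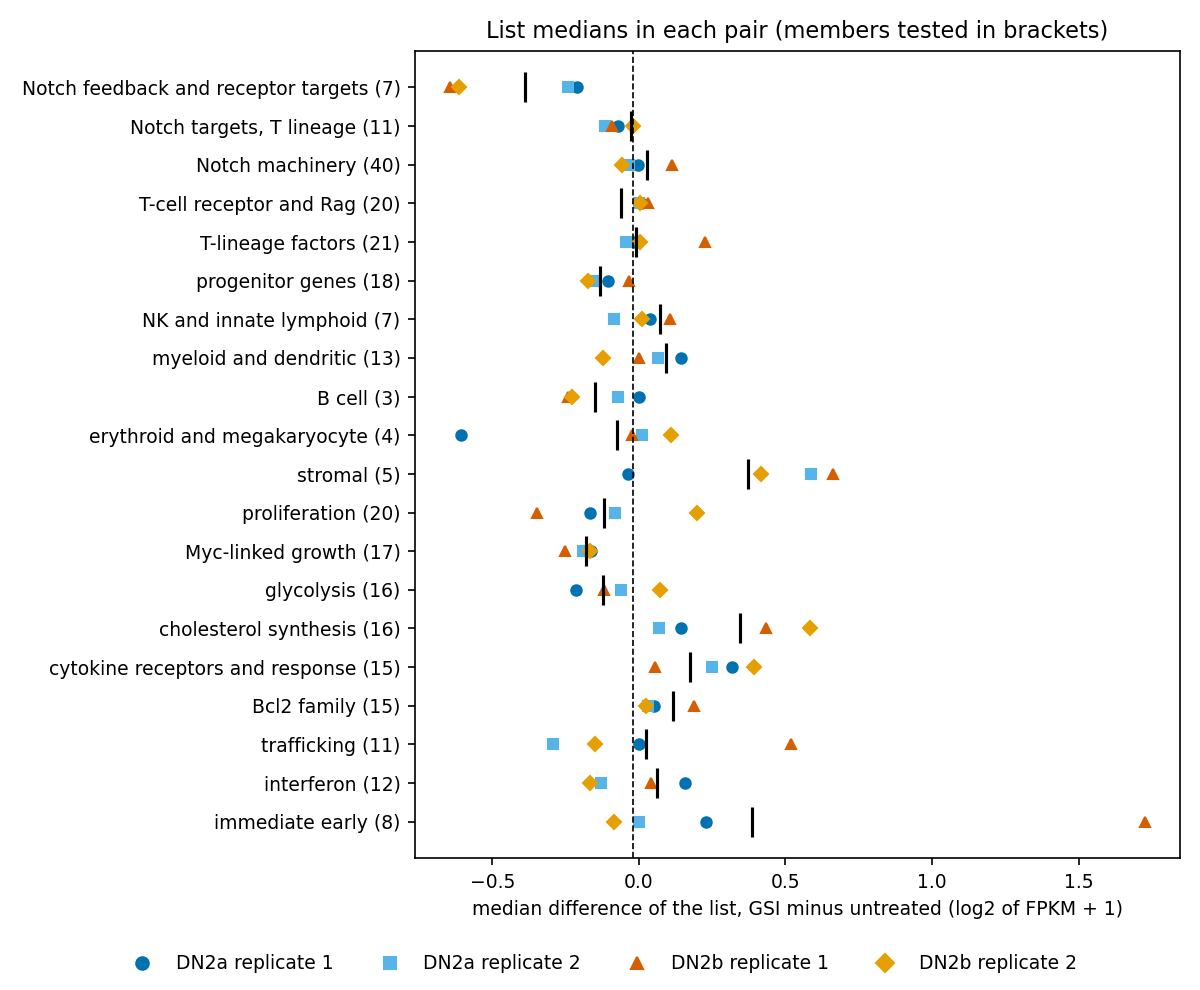
Median difference of each gene list in each pair (symbols) and of its 4-pair differences (black bar), in log2 of FPKM + 1, GSI minus untreated, with the median of all genes tested as a dashed line. The Notch feedback list is below 0 and the cholesterol list above 0 in all 4 pairs, both further from 0 in DN2b, and the immediate early list is high in DN2b replicate 1 alone.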

How the data were processed

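RNA-seq libraries of sorted precursors were deposited as 1 FPKM matrix of 17754 genes, which the authors merged and adjusted with ComBat, a batch correction, per the file name. The build was mm9, per the submitters' processing notes. Not given in the sources used here are the read aligner, the quantifier and the batches that ComBat was told of, and its adjustment could have moved low values and the spread between libraries. FPKM values hold no read counts, so the depth is unknown, and 16 columns that matched no sample were not used. No step named marks strand, so a gene and an overlapping antisense gene cannot be told apart.

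Column totals were 659884 to 789086 FPKM. Genes with at least 1 FPKM in at least 4 of the 8 libraries (12783) were tested on log2(FPKM + 1) with limma 3.58.1 in R 4.3.3, a variance trend, and the pair as a block, with Benjamini-Hochberg adjustment over all genes tested and a threshold of 0.05. A second limma model gave the effect in each stage and its difference. Pairs come from the shared date in the titles; deviations of paired libraries from their group means correlated at 0.730 in DN2a and 0.666 in DN2b. With 2 pairs a stage, these 2 values are 1 check per stage. The headers carry one letter for both replicate 1 pairs and another for both replicate 2 pairs, with no meaning given. The scripts were tested on simulated data.

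Named genes were the members of the Notch lists, the 10 most negative and 10 most positive mean differences of 1 direction in 4 of 4 pairs with a mean of at least 5 FPKM in a group, in each stage the 6 with the largest shared difference each way, the 6 smallest p for the stage difference, and up to 3 members of each other list. Predicted genes, pseudogenes and receptor segments were left out, and not every gene so chosen is described. Bcl11b, Fosb, Idi1, Il21r and Stat2 were named after their values were seen. Some genes are not reported here. The members and lists were chosen with earlier results of these data known. Alternatives were the model without the block, 2 further untreated DN2a libraries, another pseudocount, no filter, quantile normalization, median centring, robust variances, a 7-letter motif, and leaving out each pair.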

Additional observations from a re-analysis of the deposited data

Results flagged for a closer look

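Of 120 sets of 4 pair differences examined, 8 had 1 pair far from the other 3 (a gap above Dixon's critical value), and chance flags about 1 in 20 such sets. In log2 units, the pair apart was DN2a replicate 2 for Leng8 (-2.65), Baz2b (2.53) and the progenitor gene Hhex (-0.56), and DN2b replicate 1 for the coreceptor gene Gfra1 (-0.32), Cd3g (-0.45) and the immediate early gene Ier2 (1.22). For Bcl2l1 it was DN2b replicate 2 (0.63). The median of the Bcl2 family and p53 list was 0.19 in DN2b replicate 1, apart from its other 3 pairs.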

How the results depend on the processing

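Over the 4 pairs no gene was called under any of the 11 settings tried, with the smallest adjusted limma p between 0.177 and 1. With no replicate block, genes with an unadjusted p under 0.05 numbered 162 lower and 135 higher in place of 713 and 610, and with no block and the 2 further untreated DN2a libraries 251 and 175. In DN2a, leaving out each replicate gave 0 to 1 gene called (Gm10052, without DN2a replicate 1). In DN2b it gave 0 to 1 (Gm11518, without DN2b replicate 2); each of these fits has 1 pair left in that stage, and its spread comes from the pairs of the other stage. Also in DN2b, quantile normalization called 1 (Dtx1), robust variances called 2 (Dtx1 and Itpa-ps1), and the fit with the further libraries called 1 (Gm17052), as it did for the stage difference (1, the same gene). The 7-letter motif was in 6.18% of all genes with a promoter and 6.25% of those tested. Its share was 33.3% of feedback targets (2 of 6, Hes5 and Hes7), 0% of T-lineage targets and 8.11% of machinery genes. The feedback share rests on these 2 genes and was not tested. Of 100 named genes tested, 10 reversed under some setting, all with log2 differences under 0.3 in size, and 3 of these 10 had 1 direction in 4 of 4 pairs. With the further libraries these were Ccnd1 (-0.053), Trib2 (0.14), Lef1 (0.96), Cd3g (0.32) and Id2 (-0.15); with quantile normalization Ccnd1 (-0.0038) and Lef1 (0.022); with median centring Lef1 (0.0075). Leaving out each replicate gave log2 ranges that crossed 0: Gata3 -0.13 to 0.28, Igf1r -0.22 to 0.11, Ccnd1 -0.087 to 0.14, Skp2 -0.30 to 0.024, Lef1 -0.064 to 0.040, Ncstn -0.098 to 0.046 and Ier2 -0.0072 to 0.43. The cause was not tested. The block changed no other call. The files hold no counts, so no counting error or detection limit could be given, and a value at the floor cannot be read as absence.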

Other observations

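The list of amino acid synthesis and uptake genes was written after Asns, Psat1, Shmt1 and Ass1 had been seen among the lower genes. It is a description only, and these genes are among its lower members. Of 27 tested, 19 were lower and none higher in 4 of 4 pairs, beside 10.6% and 8.17% of all genes. The median log2 difference was -0.35, against -0.02 over all genes tested. Asns, asparagine synthetase, went from 25.5 to 17.9, 44.6 to 31.2, 27.7 to 13.6 and 52.5 to 34.9 FPKM, lower in every pair (log2 difference -0.63, limma adjusted p = 0.285). Slc7a5, a subunit of the large neutral amino acid transporter, had a log2 difference of -0.49 and Shmt2, a mitochondrial enzyme of serine metabolism, one of -0.54.

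Of 28 lysosomal genes in a list likewise written after values were seen, 8 were higher and 1 lower in 4 of 4 pairs. Among all genes 8.17% were higher and 10.6% lower. Ctsl, the protease cathepsin L, went from 12.6 to 23.2, 17.1 to 23.6, 15.5 to 31.1 and 14.2 to 24.8 FPKM (log2 difference 0.75, limma adjusted p = 0.285). Psap, a lysosomal activator protein gene, had a log2 difference of 0.67. In lists of FoxO targets and of the Myc network, also written afterwards, 2 of 19 and 1 of 10 tested genes were lower in 4 of 4 pairs. In each list 2 were higher. The FoxO counts are near the shares of all genes, and the Myc network held only 10 tested genes. Neither can be read as a feature of its list. Counts without DN2b replicate 1 were not made for the lists written afterwards.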
